A study of Rattus norvegicus with 180 samples.

Results

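The miR-466 and miR-297 family of the rat is described here by all 7 of its probe names on the microarray, out of 717 miRNAs in all. Members were taken by name only: miR-466b, miR-466b-1*, miR-466b-2*, miR-466c, miR-466c*, miR-466d and miR-297, where a star marks the arm of the hairpin that the older nomenclature took as the minor one. Signal was measured on 180 one-color arrays from 6 male Sprague-Dawley rats aged 10 weeks. From 3 rats perfused with saline, 55 organs were taken, with 1 array per organ and rat. From 3 rats that were not perfused, 5 organs were taken, namely lung, liver, kidney and, from the heart, cardiac atrium and interventricular septum. No other treatment is given in the labels. Per the study's methods, the 6 intestine samples (duodenum, jejunum, ileum, cecum, colon and rectum) were scraped mucosal epithelium, whereas stomach and esophagus carry no such mark, and liver was the left lateral lobe. Each sample still holds a mixture of cells, and in such bulk RNA a change in the number of cells of a type and a change in the RNA per cell cannot be told apart.

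A miRNA is a short RNA cut from a hairpin precursor that guides a silencing complex to messenger RNAs, mainly by pairing through its seed, bases 2 to 8 from its 5′ end. The miR-466 genes belong to a rodent cluster that lies within an intron of Sfmbt2, a Polycomb-group gene, and that is known above all from mouse placenta and embryonic stem cells, neither of which was sampled here. Hairpins of this cluster have an arm rich in alternating U and G and an opposite arm rich in alternating C and A. Members therefore resemble simple repeats and each other.

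The RefSeq mature sequences are shown because the members differ by small shifts of one repeat, which bears on what a probe can tell apart. Capitals mark the seed, and the sequences run 5′ to 3′. On the GRCr8 assembly, miR-297 and miR-466d were matched by their own names. The other 5 carry older names and were matched by hairpin and arm, an assignment that was not checked against the probe sequences and on which the letters and coordinates below rest: miR-466b as miR-466b-5p, miR-466b-1* as miR-466b-3p, miR-466b-2* as miR-466b-2-3p, and miR-466c and miR-466c* as miR-466c-5p and miR-466c-3p.
miR-466b: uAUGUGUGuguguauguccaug
miR-466c: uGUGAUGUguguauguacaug
miR-466d: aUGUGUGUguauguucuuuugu
miR-297: aUGUAUGUgugcauguaugcaug
miR-466b-1*: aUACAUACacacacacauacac
miR-466b-2*: aUAUACAUacacacauacaca
miR-466c*: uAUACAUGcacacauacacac
The upper 4 are of the U and G type (77.3% U or G in miR-466b) and the lower 3 of the C and A type (86.4% C or A in miR-466b-1*). All 7 hold UGUGUG or ACACAC, read on the strand of the miRNA only and in any position, while 20 of the 694 rat mature miRNAs in RefSeq (2.88%) do. The 7 seeds are all different, and none is shared with any other of the 694. Stretches of sequence are shared, with a run of 13 bases between miR-466b-1* and miR-466b-2*, 13 between miR-466b and miR-466d and 12 between miR-466b-2* and miR-466c*, of which only the last lies outside both seeds. The probe base sequences were not used here, so whether a probe also bound a neighbour of the family was not tested.

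On GRCr8 the 4 Mir466 genes lie on the minus strand of chromosome 17 within 32.6 kb, at chr17:72913004-72945578, inside the annotated span of Sfmbt2 (chr17:72844037-73038599). The mature miR-466b-1* lies at chr17:72945512-72945533 and the mature miR-466b-2* at chr17:72942475-72942495, in separate hairpins. The mature miR-466b is listed for both of these hairpins, so its signal cannot be divided between them. Mir297 lies apart, on chromosome 10 at chr10:98715682-98715747. No probe name on the array began with miR-467 or miR-669, the other families of the mouse cluster.

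Detection was counted before any level was compared. The rule for detection asked that the scanner software mark more than 50% of the spots in use for a miRNA as well above background. Of the 7 members, 3 were detected on 0 of 180 arrays, namely miR-297, miR-466c and miR-466d, as were 292 of all 717 miRNAs (40.7%). The unscaled signal of miR-297 lay between -1.75 and 1.82, that of miR-466c between -1.79 and 1.39 and that of miR-466d between 0.605 and 4.18. For comparison, the 99th percentile of the negative control spots was 4.42 to 23.5 per array. All 3 lay below the lowest signal at which any miRNA was detected, which was 5.53 to 14.4 depending on the array. They are therefore reported as not well above background in these 55 organs, without a level. Under a looser rule, with over 50% of spots positive and significant, miR-466d was found on 82 arrays and miR-297 and miR-466c on 0.

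miR-466c* was detected on 1 array, the colon of rat 4, with an unscaled signal of 14.5 and 90% of its spots well above background. The other 2 colon arrays did not detect it. miR-466b was detected on 41 arrays and miR-466b-2* on 30 arrays, and 247 of the 717 miRNAs (34.4%) were detected on 30 arrays or more. miR-466b-1* was detected on 177 arrays, and 75 of the 717 (10.5%) were detected on 170 arrays or more. The 3 arrays on which it was missed were the ventral prostate, eyeball and bone marrow of rat 6.

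By organ, and on this rule, miR-466b was detected on all arrays of 3 organs (pancreas, bone marrow and parotid gland) and on no array of 29 organs. On more than 1 array it was also found in testis, ileum, cecum, colon, cervical lymph node, mesenteric lymph node, spleen, white adipose tissue and lung. miR-466b-2* was detected on all arrays of testis (3 of 3) and liver (6 of 6) and on no array of 37 organs, with 2 arrays each in ileum, colon, pituitary gland, abdominal vein and spleen. miR-466b-1* was detected on all arrays of 52 organs and on at least 1 array of every one of the 55. These counts depended on the detection rule for miR-466b and miR-466b-2*. miR-466b had exactly 50% of its spots above background, just short of the rule, on 32 arrays and miR-466b-2* on 2. The 2 probes of miR-466b differed in brightness by a median of 5.10-fold on the arrays that detected it. How the spots above background were divided between these probes was not tested. When all spots had to be well above background, miR-466b was detected on 10 arrays and miR-466b-2* on 15, against 164 for miR-466b-1*, and by the scanner software's own call per miRNA on 159, 97 and 180 arrays. The organs without a detection are therefore without one on this rule only.

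**Figure D1:**
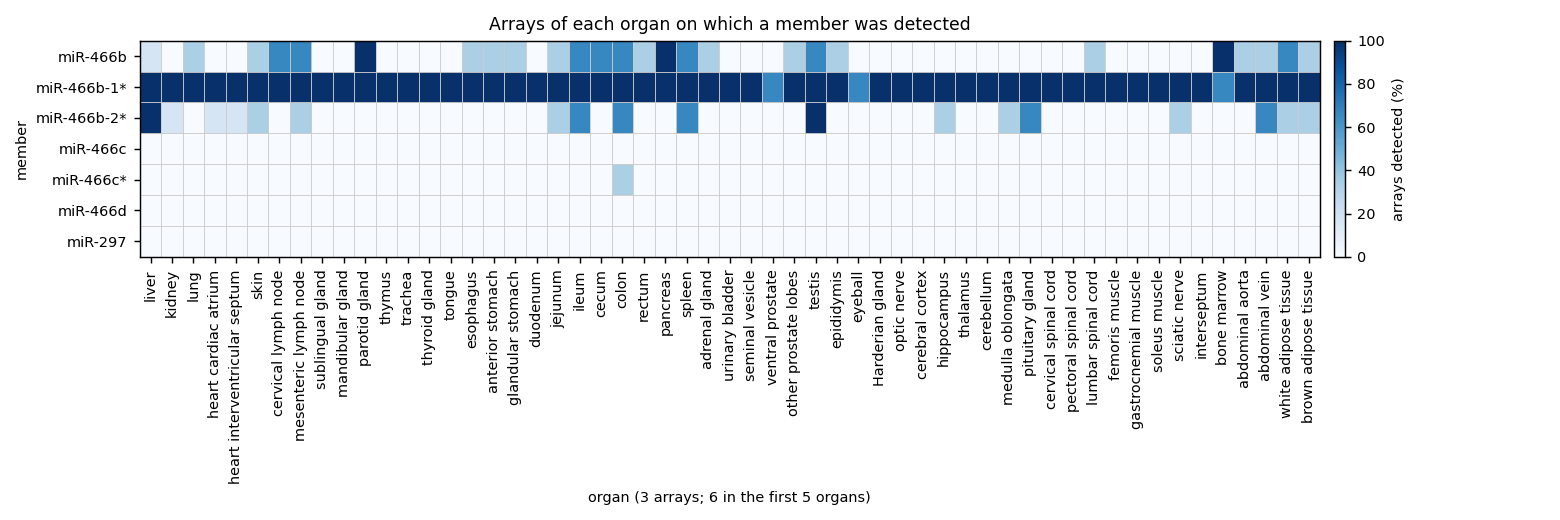
Percent of arrays on which each of the 7 members was detected (rows) in each of the 55 organs (columns), with 6 arrays for the 5 organs taken from both perfused and not perfused rats and 3 for the others. miR-466b-1* fills nearly every organ, miR-466b and miR-466b-2* fill 3 and 2 organs completely, and miR-297, miR-466c and miR-466d are empty throughout.

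Levels are given for the 3 members detected on all arrays of at least 1 group, as signal intensity scaled between arrays so that the 75th percentile of the 37 miRNAs found on every array was equal. For tests, values under a floor of 10.8, the median of the lowest scaled signal of a detected miRNA, were set to the floor. With limma over 180 arrays, the level differed between organs for miR-466b (adjusted p = 3.59e-30), miR-466b-1* (adjusted p = 2.93e-33) and miR-466b-2* (adjusted p = 3.1e-51). That is no distinguishing property, since 99.7% of the 345 miRNAs tested differed between organs. Each organ was therefore also set against the average of the remaining 54, with p-values adjusted over all miRNAs and organs together. In these contrasts 23.7% of all comparisons were called higher and 52.3% lower. The fit gave each miRNA 1 spread shared by all organs, floored arrays included. Arrays under the floor were 62.2% of all for miR-466b, 6.67% for miR-466b-1* and 77.8% for miR-466b-2*. The SE and p-value of an organ therefore do not measure the spread of its own replicates.

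miR-466b had its highest scaled signal in the pancreas. Scaled signal there was 3149, 5605 and 2760 in rats 4, 5 and 6, with a mean of 3838 ± 1542 (SD, n = 3). All 3 arrays lay above every array of every other organ, the highest of which was 1755 on a single cecum array. Against the average of the remaining organs, the pancreas was higher by 7.90 ± 0.40 (SE) on the log2 scale (adjusted p = 1.03e-38), where 41.2% of the 345 miRNAs were called higher in the pancreas. miR-466b entered the tests only because all arrays of pancreas, bone marrow and parotid gland detected it. The p-values of these organs therefore partly restate that detection and are no separate support. With no filter, 7 organs were called higher for miR-466b, as in the main setting. Since 29 organs had no detected array, the ratio to each of them is only a bound, taken from geometric means. In the main scaling the pancreas was at least 100.6-fold higher than any one of them. This bound does not carry over to other scalings. Before scaling, the mean was 169 in the pancreas and 11.3 in sciatic nerve, the highest of the 29.

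The pancreas arrays were dim as a whole. Their scale factors were 17.5, 23.4 and 31.1, against a median of 1.14 over all arrays, and 102, 108 and 86 miRNAs were detected on them, against a median of 161.5. Before scaling, miR-466b stood at 180, 240 and 88.6 in the pancreas, the second highest mean of the 55 organs. The only higher mean, 378 in the cecum, rested on the array of rat 4 (1121, against 9.41 and 4.93 in rats 5 and 6). Without scaling, the difference of the pancreas from the other organs was 3.73 on the log2 scale. With all miRNAs in the percentile it was 5.12. Across organs the mean log2 level of miR-466b followed the log2 scale factor (Pearson r = 0.776 over 55 organ means that share rats and slides), whereas the median correlation over the tested miRNAs was 0.0989. For miR-466b-1* it was 0.782 and for miR-466b-2* 0.597, and on unscaled signal the 3 values were 0.556, -0.0501 and 0.184. Other organs called higher also had dimmer arrays than the median, with scale factors of 2.29 to 4.201 in bone marrow, 2.00 to 6.30 in the parotid gland, 2.87 to 3.92 in testis and 3.22 to 4.67 in liver. The part of the dim arrays in the size of the difference was not tested beyond these settings.

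Bone marrow came next in miR-466b among the organs where all arrays detected it. Scaled signal was 119, 146 and 255 (mean 173 ± 72.1), and the difference from the other organs was 3.34 ± 0.40 on the log2 scale (adjusted p = 7.18e-13; 29.9% of miRNAs were called higher in bone marrow). The parotid gland, a serous salivary gland, had 59.0, 169 and 171 (mean 133 ± 63.9) and was higher by 2.87 ± 0.40 on the log2 scale (adjusted p = 2.87e-10; 27.5% of miRNAs). The arrays of these 2 organs overlapped in range. In the main scaling, bone marrow was at least 4.53-fold higher than any one of the 29 organs without a detection. For the parotid gland this bound was 3.29-fold. On the slides that held other organs too, bone marrow stood 3.24 to 4.45 and the parotid gland 2.25 to 3.92 above the others of the same slide, in 3 of 3 slides each, and within scan days 2.91 to 3.82 and 1.69 to 3.58. The contrasts were smaller under some settings, in bone marrow 2.09 without scaling and 1.53 with normexp, and in the parotid gland 1.48 without scaling and 1.24 with a floor 4 times as high.

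Testis and the intestine followed at lower miR-466b signal. Testis had 62.4, 66.1 and 55.8, close together, with 2 of 3 arrays detected and a difference of 1.90 ± 0.40 on the log2 scale (adjusted p = 1.65e-05). Ileum had 67.1, 96.4 and 7.35, so that rat 6 lay under the floor while the mean was called higher by 1.31 (adjusted p = 0.00252). Jejunum was called higher by 0.98 (adjusted p = 0.0229). The calls of these 3 organs were not stable: of 17 alternatives, testis kept its call in 12 (0.54 without scaling and 0.40 after quantile normalization), ileum in 13 and jejunum in 10, and ileum and jejunum also lost it when rat 5 was left out (0.70 and 0.82). In the order of means, no neighbours after the pancreas had separate ranges among the first 12 organs. The 4 organs called lower (lung, kidney, heart interventricular septum and heart cardiac atrium) had every array at the floor and differed from the rest by the same -0.65, so these calls show only that the scaled signal was under the floor. In lung this is not absence of signal, since 2 of 6 arrays detected miR-466b and the scale factors of lung were 0.334 to 0.434. Both arrays were from not perfused rats (rats 2 and 3), with 52.6% and 58.8% of spots well above background. The lungs of perfused rats 4, 5 and 6 had 11.1%, 21.1% and 50.0%.

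The cecum rested on a single array. miR-466b was 1755 in the cecum of rat 4 but 12.3 and 5.60 in those of rats 5 and 6, and the mean of 591 ± 1008 was the second highest of all organs. With the 3 arrays the cecum was called higher by 1.90 on the log2 scale (adjusted p = 1.54e-05; 28.1% of miRNAs were called higher in the cecum), and without the array of rat 4 the value was -0.51. That array also correlated less with its replicates over all detected miRNAs (r = 0.945 and 0.936) than they did with each other (r = 0.995), and the range over all 225 replicate pairs was 0.918 to 0.998. On it miR-494_v15.0 read 2974 against 169 and 112, and miR-125a-3p 88.3 against 10.1 and 6.49. miR-1224 was not raised, at 829 against 1109 and 866. The intestinal markers miR-194 and miR-192 read 1226 and 3406 against at least 3337 and 9878. The pancreas markers miR-217 and miR-216a were near 0 on all 3 cecum arrays. The part of these differences in the miR-466b signal was not tested.

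**Figure D2:**
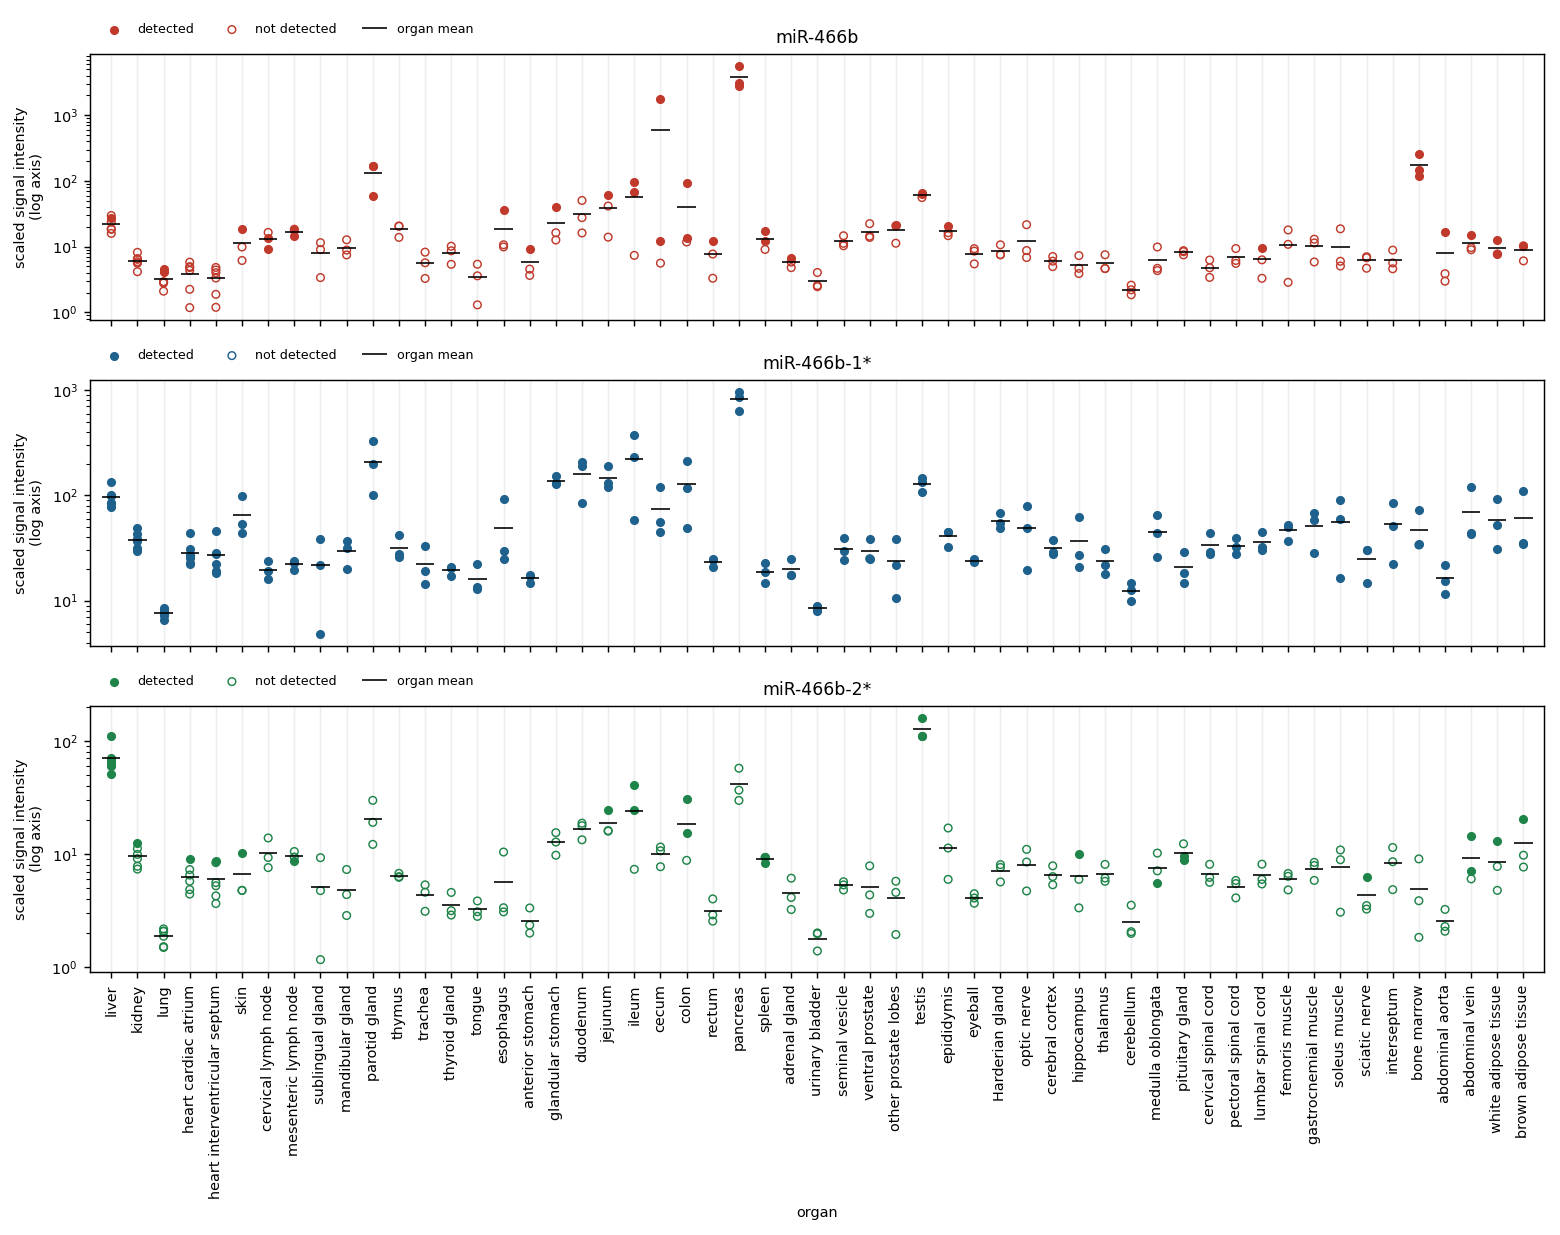
Scaled signal intensity (log axis) of miR-466b, miR-466b-1* and miR-466b-2* on each of the 180 arrays by organ, with filled points for detected arrays, open points for arrays not detected and a bar at the organ mean. The pancreas stands highest for miR-466b (2760 to 5605) and miR-466b-1* (640 to 959), testis and liver stand highest for miR-466b-2*, and 1 cecum point of miR-466b lies at 1755 apart from its replicates.

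miR-466b-1*, the C and A arm of the first hairpin, was found in nearly all organs. The pancreas was again highest, with 640, 866 and 959 (mean 822 ± 164), and was called higher by 4.47 ± 0.33 on the log2 scale (adjusted p = 2.95e-25). The difference depended on the scaling. It was 3.38 with normexp, 3.12 after quantile normalization, 2.53 on the authors' table and 1.79 with all miRNAs in the percentile, and the call was kept in 15 of 16 alternatives. Unscaled signal in the pancreas was 36.5, 37.0 and 30.8, which is rank 25 of the 55 organs, and the contrast without scaling was 0.20. The pancreas was rank 4 with all miRNAs in the percentile.

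Several organs of the digestive tract were called higher for miR-466b-1*, while anterior stomach (-1.26), rectum (-0.74) and tongue (-1.33) were called lower and the esophagus (0.08) was not called. Ileum read 232, 372 and 58.9 (mean 221 ± 157) and was higher by 2.19 ± 0.33 on the log2 scale (adjusted p = 3.12e-09; 31.9% of miRNAs were called higher in the ileum). The parotid gland read 101, 200 and 327 (mean 209 ± 113) and was higher by 2.32 ± 0.33 (adjusted p = 4.78e-10). Duodenum, jejunum and glandular stomach were higher by 1.98, 1.93 and 1.86 on the log2 scale. Parotid gland, ileum, jejunum and glandular stomach were called higher in every alternative processing run, and the duodenum was not called without scaling. With 1 rat left out, the ileum value ranged from 1.52 to 3.10 and stayed called. Within slides the ileum was above the other organs in 2 of 3 slides (-0.30 to 2.81).

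Colon, testis, liver and cecum were also called higher for miR-466b-1*, each with a call that was lost under some alternative. Colon read 214, 48.9 and 118, testis 107, 147 and 133. Liver lay between 78.1 and 135 on 6 arrays (mean 97.3 ± 20.9) and was higher by 1.33 ± 0.24 on the log2 scale, a value that turned to -0.31 without scaling. Testis lost its call without scaling (0.30) and with all miRNAs in the percentile (0.45), and colon with normexp. The cecum call of 0.81 was kept in 11 of 17 alternatives and was lost when rat 4 was left out (0.37). In all, 10 organs were called higher and 20 lower, counts that moved to 18 higher with all miRNAs in the percentile and to 4 lower with a floor 4 times as high.

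The lower organs of miR-466b-1* were still above background. Of the 20, 19 had all arrays detected, and the differences ran from -0.60 in the heart interventricular septum to -1.87 in lung and urinary bladder, where every array was at the floor after scaling. Arrays of lung and urinary bladder were bright, with scale factors of 0.334 to 0.434 and 0.348 to 0.460. Their unscaled signal was 16.8 to 22.4 and 18.3 to 23.1, against 21.0 to 31.5 in liver, which was called higher. The others called lower were cerebellum, tongue, abdominal aorta, anterior stomach, spleen, cervical and mesenteric lymph nodes, thyroid gland, adrenal gland, pituitary gland, trachea, sublingual gland, other prostate lobes, thalamus, rectum, sciatic nerve and eyeball. The mean was 7.66 in lung, detected on 6 of 6 arrays, 8.48 in urinary bladder, 12.4 in cerebellum and 16.2 in tongue. The 10 organs of the nervous system had means of 12.4 to 49.1 and were detected on 30 of 30 arrays, and the 8 organs of stomach and intestine 16.5 to 221.

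**Figure D3:**
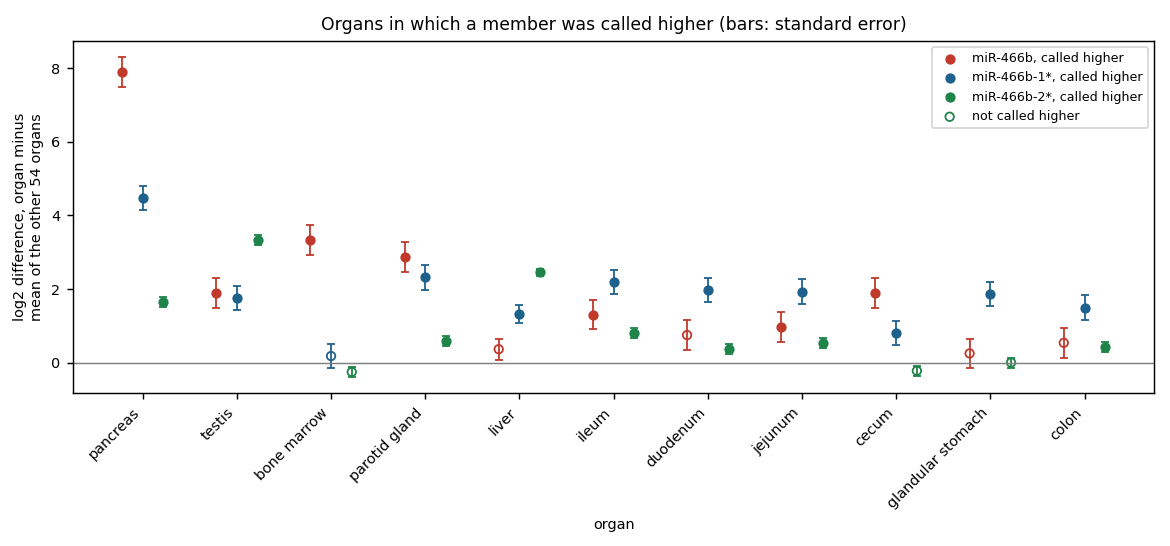
Difference of each organ from the mean of the other 54 organs (log2 scale, bars SE) for the 3 members in the 11 organs where any was called higher, with filled points where the organ was called higher and open points where it was not. miR-466b reaches 7.90 in the pancreas, and miR-466b-2* reaches 3.35 in testis and 2.46 in liver.

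miR-466b-2*, the C and A arm of the second hairpin, had another pattern, with testis and liver on top. Testis read 110, 111 and 159 (mean 127 ± 28.1) and was higher by 3.35 ± 0.14 on the log2 scale (adjusted p = 1.29e-48; 39.1% of miRNAs were called higher in testis). Liver ranged from 51.5 to 110 with a median of 64.4 on 6 arrays (mean 70.2 ± 20.7) and was higher by 2.46 ± 0.10 (adjusted p = 6.86e-50; 22.6% of miRNAs were called higher in liver). All 9 arrays detected it, and the ranges of both organs touched at 110. The SD of the log2 values was 0.30 in testis and 0.37 in liver. miR-466b-2* entered the tests only because all arrays of testis and liver detected it. The p-values of both organs therefore partly restate that detection and are no separate support. Both organs were also called higher with no filter. No fold is given against the 37 organs with no detected array, because the detection limit of the pancreas after scaling lay above the level of both.

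Testis and liver were called higher for miR-466b-2* in every alternative processing, with differences of 1.49 to 4.17 and 0.62 to 3.28, and they ranked first and second without scaling too. Within slides testis stood 3.34 to 3.53 above the other organs in 3 of 3 slides and liver 2.25 to 3.27 in 5 of 5. A further 6 organs were called higher (pancreas, ileum, parotid gland, jejunum, colon and duodenum), but only ileum, jejunum and colon had a detected array. Over the alternatives these calls were kept in 13 of 17 for ileum, 12 of 17 for colon, parotid gland and duodenum, 11 of 17 for jejunum and 11 of 16 for pancreas, and each of the 6 turned negative in at least 1. Ileum read 24.7, 40.4 and 7.33, with rat 6 under the floor. In the pancreas the 3 arrays read 29.8, 36.8 and 57.4 after scaling with 0 of 3 detected, and the unscaled signal was 1.57 to 1.84, with the lowest mean of the 55 organs. The calls for pancreas, parotid gland and duodenum therefore concern signal that was not well above background. Leaving out rat 5 ended the call for ileum (0.34), and leaving out rat 4 ended those for jejunum (0.32), colon (0.009) and duodenum (0.27).

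Differences between members within an array also varied by organ. Since miR-466b is listed for both hairpins and the starred members come from separate ones, these are not arm ratios of a single hairpin. On the log2 scale, over the arrays that detected both, miR-466b minus miR-466b-1* within the same array was 1.53 to 2.69 in the pancreas (3 arrays) and 0.71 to 2.09 in bone marrow (2 arrays). It was -0.94 to -0.25 in the parotid gland (3 arrays), -1.15 to -0.78 in testis (2 arrays) and -1.95 to -1.79 in the ileum (2 arrays). Because each probe has its own brightness, only the change of this difference between organs can be read, and scaling cancels in it. In pancreas and bone marrow the arrays lay above those of the other 3 organs without overlap. miR-466b-2* minus miR-466b-1* was -0.41 to 0.26 in testis (3 arrays) and -0.76 to -0.14 in liver (6 arrays), but -3.23 to -3.20 in the ileum (2 arrays). These ranges are descriptions over 2 to 6 arrays, chosen with the levels known, and carry no test.

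**Figure D4:**
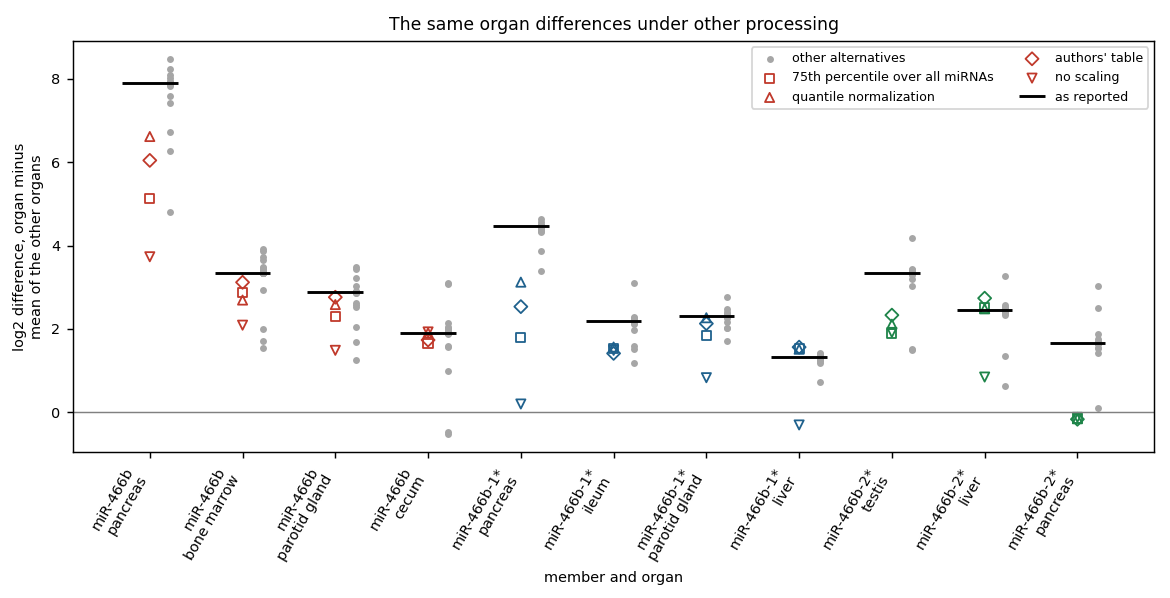
Difference from the mean of the other 54 organs (log2 scale) of the named member and organ pairs under each processing setting. The miR-466b pancreas value moves between 3.73 and 8.47 and stays called, while the miR-466b-1* pancreas value falls to 0.20 without scaling.

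Without scaling, the median difference over all miRNAs in the pancreas moved from -0.10 to -0.84 on the log2 scale, and miR-466b there stood 4.57 above that median, against 6.97 after quantile normalization and 5.58 with all miRNAs in the percentile. Without scaling, miR-466b stood 2.51 above the median in bone marrow and 2.03 in the parotid gland, and miR-466b-2* stood 2.40 above it in testis and 1.52 in liver. The normexp setting, which changed the background correction, used median spot signals and added an offset of 50, moved the values further. With it the median difference over all miRNAs in the pancreas moved from -0.10 to 2.89 on the log2 scale, and miR-466b there stood 1.93 above that median, against 8.01 in the main setting. The same setting moved the bone marrow median to 0.71 and the parotid median to 1.62, and miR-466b stood 0.82 and 0.43 above them. For miR-466b-2* the values above the median were 0.69 in testis and 0.46 in liver with normexp, against 3.41 and 2.67. Of all organ calls, 31.2% were higher in the main setting and 50.3% with normexp. For the pancreas that share was 47.2% in the main setting, 20.6% with all miRNAs in the percentile, 26.6% after quantile normalization, 24.1% on the authors' table, 13.3% without scaling and 97.0% with normexp.

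The 2 probes of miR-466b differed in brightness by a median of 5.10-fold but ran in parallel over the arrays that detected it (r = 0.983 on the log2 scale). The probes of miR-466b-1* and miR-466b-2* differed by medians of 1.22-fold and 1.13-fold. No spot of any member was saturated on any array. Pancreas, bone marrow and parotid gland stayed called for miR-466b with each probe alone.

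Perfusion with saline was compared in the 5 organs taken from both groups of rats, to ask whether blood left in an organ changes its profile. In liver, miR-466b-2* was 51.5 to 110 in perfused and 59.9 to 66.5 in not perfused rats, so that the range of the former enclosed that of the latter. The difference was 0.23 ± 0.14 on the log2 scale (limma, adjusted p = 0.854). miR-466b-1* differed in liver by 0.03 ± 0.28 (adjusted p = 1.0). In limma's test 0 of 945 comparisons over 189 miRNAs and 5 organs were called (0.0%), and 34 had an unadjusted p under 0.05. The 2 conditions come from different rats, with 3 arrays each per organ. In liver the not perfused arrays lay on slides 1 and 2 of scan day 1. The perfused ones lay on slides 3, 10 and 16 of scan days 1, 2 and 3. Perfusion therefore cannot be told apart from rat, nor in liver from slide. miR-466b was not tested in this comparison, because no group of these organs detected it on all 3 arrays. The only arrays of these organs that detected it were from not perfused rats, namely lung of rats 2 and 3 and liver of rat 3. Whether blood left in the organ had a part in these detections was not tested.

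**Figure D5:**
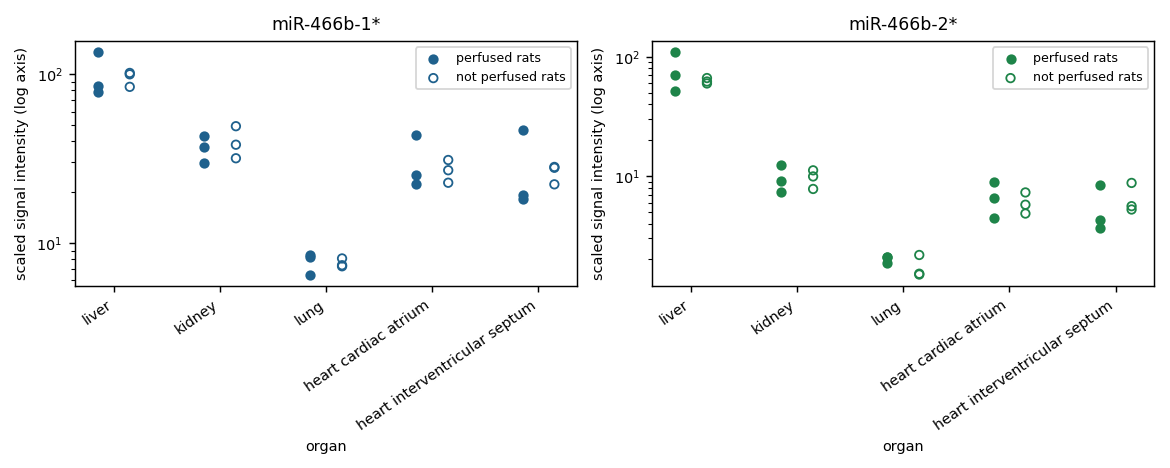
Scaled signal intensity of miR-466b-1* and miR-466b-2* in perfused and not perfused rats in 5 organs, with 3 arrays per group shown as points. In every organ the ranges of both groups overlap, as in liver for miR-466b-2* (51.5 to 110 against 59.9 to 66.5).

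Other miRNAs were ranked by the Pearson correlation of their 55 organ means of log2 values with those of each member, as a description over organs that share rats and slides. Closest to miR-466b were miR-1224 (r = 0.937), miR-1249 (0.915), miR-125a-3p (0.908), miR-494_v15.0 (0.906) and miR-423* (0.905). Closest to miR-466b-1* were miR-328a* (0.818), miR-1224 (0.791), miR-3573-3p (0.777), miR-188 (0.775) and miR-423* (0.772). All of these were highest in the pancreas after scaling, and Spearman's rho was 0.551 to 0.778. Detection varied among them, with 180 arrays for miR-1224 and miR-494_v15.0, 136 for miR-3573-3p and 77 for miR-423*. miR-328a*, miR-188, miR-1249 and miR-125a-3p were detected on 59, 52, 24 and 22 arrays. Closest to miR-466b-2* were miR-202* (0.820), miR-202_v15.0 (0.774), miR-511* (0.693), miR-883* (0.681) and miR-881* (0.661), which were all highest in testis. Of these, miR-511* was detected on 75 arrays and the others on 3 to 11, and Spearman's rho was 0.308 to 0.498. Between members, r was 0.734 for miR-466b and miR-466b-1*, 0.553 for miR-466b and miR-466b-2* and 0.626 for the 2 starred arms.

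Few other miRNAs with the same repeat could be looked up. Of the 717 probe names, 179 matched a RefSeq mature name, and among them 4 outside the family hold UGUGUG or ACACAC (miR-291a-3p, miR-3571, miR-3576 and miR-568). All 4 were detected on 0 arrays, as were 292 of all 717 miRNAs (40.7%). A filter of the kind in the study's methods, a Shapiro-Wilk test with Bonferroni adjustment together with a maximal signal over 100, was run on log2 values, which is a choice made here because the methods do not state the scale, so it is not shown to be the study's own calculation. It was passed by 38.5% of the 715 miRNAs in the authors' table of normalized signals. Of the members, miR-466b (maximum 2352) and miR-466b-2* (maximum 199.7) passed it, whereas miR-466b-1* did not (maximum 440, adjusted p = 1.0). On the scaled values used here the filter was passed by 39.2% of 717 miRNAs and by miR-466b-1* as well (maximum 959, adjusted p = 8.98e-05), so its result differed between the tables.

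The organ labels were checked against marker miRNAs. miR-122 was highest in liver (102697), miR-34c and miR-449a in testis (14072 and 6696), miR-217 and miR-216a in pancreas (3311 and 5773) and miR-451 in bone marrow (25687). The 5 highest organs of miR-142-3p were the 5 blood-forming and lymphoid organs, whereas for miR-223 only bone marrow and spleen of these were among the 5 highest and the pancreas was rank 4. miR-375 was highest in pancreas (5873) but close to it in pituitary gland (5659), and the 6 highest of miR-194 and miR-192 were the 6 parts of the intestine. The parotid gland of rat 6 stood apart from that of rat 4 (r = 0.918, the lowest of the replicate pairs). Arrays lay on 23 slides read on 3 scan days.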

How the data were processed

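The 717 miRNAs were measured on 180 arrays with 14340 spots each, 3 arrays per organ and condition. The authors labeled 0.1 ug RNA with Cy3 and deposited, per array, the output of Agilent Feature Extraction 10.7.3, from which the background-corrected signal intensity and the flags of each spot were taken, and a table of normalized intensities per miRNA, which served as an alternative. Spots with outlier flags were left out. The mean over a probe's spots was taken, then the mean over a miRNA's probes, scaled by the 75th percentile described with the levels to a mean of 2118, floored and put on the log2 scale. Groups came from the sample labels. For 8 arrays the labels give 2 rat numbers, and an alternative left these out.

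Tests were two-sided, with limma 3.58.1 in R 4.3.3 (1 term per organ, 345 miRNAs for which 1 or more groups had every array detected) and Benjamini-Hochberg adjustment at 0.05. The fits were checked on simulated data with normal noise and no floor. That check therefore does not cover the floored values of the members. Organs of 1 rat share its number: the mean correlation of residuals was 0.0332, 0.0611 and 0.0544 within rats 4, 5 and 6 and -0.0246 between rats. Since 3 rats gave all organs, the rat entered an alternative as a block. Members were taken by name only, though with earlier results of these data known, and the lists were chosen with those results known. All members are named, with the organs where a member was detected on over 1 array, called, or among the 5 highest means, and the 5 miRNAs most alike in organ means. Array number limits the precision to 3 or 6 samples per organ. Normexp used the median spot signals with an offset of 50.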

Additional observations from a re-analysis of the deposited data

How the results depend on the processing

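The number of arrays with a detected member depended on the rule. With all spots required, it was 10 for miR-466b, 15 for miR-466b-2* and 0 for miR-466c*. With the scanner software's own call it was 159, 97 and 5, and with spots that were positive and significant 174, 168 and 26, and 82 for miR-466d. Without 1 rat, the counts were 22 to 41, 19 to 29 and 0 to 1. The organ with the highest mean took another rank under some scalings. Without scaling, the pancreas was rank 2 for miR-466b, behind a cecum mean that rested on the array of rat 4. For miR-466b-1* the pancreas was rank 4 with all miRNAs in the percentile and 25 without scaling. For miR-466b-2* testis was rank 2 with all miRNAs in the percentile, after quantile normalization and on the authors' table, and 4 with normexp. Organs called higher for miR-466b numbered 7, but 4 after quantile normalization, on the authors' table and with a floor 4 times as high. For miR-466b-1* they numbered 10, but 18 with all miRNAs in the percentile, 17 after quantile normalization and 18 on the authors' table. For miR-466b-2* they numbered 8, but 4, 5 and 2 with all miRNAs in the percentile, quantile normalization and the higher floor, and 5 to 8 without 1 rat. Organs called lower for miR-466b-1* numbered 20, but 12 without scaling, 12 with normexp, 4 with the higher floor and 10 to 19 without 1 rat. The replicate block (rat as a term) gave 7, 12 and 8 organs called higher for miR-466b, miR-466b-1* and miR-466b-2*.

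Some differences changed sign (log2). For miR-466b, jejunum was -0.07 with the higher floor and -0.017 with 1 of its probes, and the cecum was -0.515 without the array of rat 4, with -0.476 to 3.09 when 1 rat was left out. For miR-466b-1*, liver was -0.307 without scaling. For miR-466b-2* in organs other than testis and liver, the values were -0.151 with all miRNAs in the percentile (duodenum, pancreas), -0.124 without scaling (parotid gland, duodenum, pancreas; -0.116 in jejunum), -0.158 after quantile normalization (duodenum, pancreas; -0.056 in jejunum) and -0.170 on the authors' table (parotid gland, duodenum, pancreas; -0.068 in jejunum). They were -0.043 with the higher floor (parotid gland, duodenum, jejunum, ileum, colon) and -0.245 with normexp (colon). The difference between organs stayed called for all 3 members in every setting run, and perfusion gave 0 calls for miR-466b-1* and miR-466b-2*, the members tested there. Causes of these changes were not tested. Dim signal limits all statements on miR-297, miR-466c, miR-466c* and miR-466d, and on organs at the floor.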
